A study of Mus musculus with 6 samples.

Results

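The unfolded protein response and quality control of the endoplasmic reticulum (ER) were followed through 34 genes in knee cartilage of miR-455 null and wild-type (WT) mice. The 34 genes were named by symbol and matched to the Ensembl mouse gene identifiers of the deposited tables, which held 36711 identifiers, and all 34 were found. They form 4 arms: 15 folding chaperones and folding enzymes, 9 genes of ER-associated degradation, 3 stress sensors with the transcription factor Xbp1, and 6 genes of the PERK and ATF4 branch. The set was selected on the difference in abundance between null and WT libraries, since chaperone genes had been seen to differ in these data. That difference is therefore given as a description, and no test of the set is made.

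Total RNA from the knee cartilage of mice aged 3 months was sequenced in 3 miR-455 null and 3 WT libraries. The null mice carry a short CRISPR-Cas9 deletion inside the microRNA hairpin, which lies in an intron of Col27a1, so that neither mature strand is left whole. The line was bred onto its background after editing, so that the deletion is inherited and no cartilage-specific driver was used. Both groups are labelled C57/Bl6, received no treatment, and each library pooled the cartilage of 2 knees, taken from tibia and femur. The sources do not say whether the WT mice were littermates of the null mice, so the deletion and any difference in background between the colonies cannot be told apart. Of the 4 genes that passed adjustment, all outside the set, 2 were higher in null libraries. Both were listed at 0 to 0.476 in WT libraries. The null libraries held 109 to 226 of one and 3.92 to 5.002 of the other. The other 2 were lower in null libraries. One was at 0.157 to 0.328 in null and 3.02 to 3.83 in WT libraries. The second was at 0 in null and 2.52 to 4.27 in WT libraries. The part of background in these values, or in those of the 34 genes, was not tested. The sources do not say either that the libraries came from separate animals, so the errors given measure only the spread between these libraries.

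Proteins bound for secretion or membranes are folded in the ER by chaperones of the HSP70, HSP90 and lectin families and by disulfide isomerases. Proteins that fail to fold are drawn back into the cytosol and degraded. When unfolded proteins accumulate, the sensors IRE1 (gene Ern1), PERK (Eif2ak3) and ATF6 (Atf6) respond. IRE1 splices Xbp1 mRNA, ATF6 is cut to release a transcription factor, and both outputs raise chaperone and degradation genes. PERK phosphorylates a translation initiation factor, which lowers general translation but favours that of Atf4. Chondrocytes and osteoblasts secrete large amounts of collagen and proteoglycan, and collagens with folding defects cause chondrodysplasias in which this response is active.

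The deposited values are called normalised counts by the authors. They were not whole numbers, summed to between 917819 and 984946 in null libraries and between 934755 and 1135956 in WT libraries, and were treated as abundances per transcript length, which the sources do not state. They are called abundances here. The read depth behind them is unknown, so no counting interval is given. Chondrocyte markers were detected, 11 of the 14 with a mean abundance of at least 1. The 14 genes together gave only 0.0248% to 0.0387% of the abundance in null libraries and 0.0238% to 0.0283% in WT libraries. The 9 osteoblast and osteocyte markers gave 0.130% to 0.202% in null and 0.114% to 0.186% in WT libraries. The 7 fibroblast markers gave 0.0378% to 0.0904% in null and 0.0386% to 0.0561% in WT libraries. Erythroid markers gave 11.5% to 21.7% in null and 26.4% to 27.3% in WT libraries, and neutrophil markers 8.40% to 20.5% in null and 8.66% to 10.4% in WT libraries. The member genes are expressed by many cell types. In such mixed tissue, fewer cells of a type and less RNA per cell cannot be told apart.

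The promoters are shown first because chaperone genes share a DNA element that ATF6 and XBP1 act through, the ER stress response element (ERSE). It is written here as CCAAT, 9 bases of any kind, and CCACG, searched on both strands. RefSeq promoters (build GRCm38.p6, 250 bases before to 50 after the start of a gene) were given for 30 of the 34 genes, all but Manf, Hyou1, Atf6 and Derl1. An ERSE lay in the promoter of 9 of these 30. Over all 27025 genes with a promoter in the table, 37 had one, or 0.137%. Since the element was picked as one that chaperone genes share, this difference is a description and not a result of these data. The promoter of Hspa5, the ER member of the HSP70 family and the usual reporter of the response, is printed with its exact match in capitals. Partial matches are not marked.
Hspa5 promoter (chr2:34771840-34772139, plus strand): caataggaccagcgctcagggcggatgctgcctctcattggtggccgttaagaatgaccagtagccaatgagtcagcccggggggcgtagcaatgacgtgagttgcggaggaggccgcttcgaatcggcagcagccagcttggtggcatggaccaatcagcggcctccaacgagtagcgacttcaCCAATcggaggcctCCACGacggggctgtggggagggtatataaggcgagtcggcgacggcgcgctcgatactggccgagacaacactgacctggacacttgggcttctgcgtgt

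The ERSE of each of the 9 genes is printed in the direction that reads CCAAT first, with 5 bases on either side in lower case and the fixed letters in capitals. The coordinates are those of the element itself. Hsp90b1 had 2 elements. The first base of the element lay 44 bases (Syvn1) to 212 bases (Hsp90b1) before the gene start.
Hspa5 (chr2:34772025-34772043, plus strand): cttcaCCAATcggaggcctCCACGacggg
Hsp90b1 (chr10:86705638-86705656, minus strand): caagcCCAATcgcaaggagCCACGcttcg
Hsp90b1 (chr10:86705533-86705551, plus strand): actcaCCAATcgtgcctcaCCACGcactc
Calr (chr8:84847075-84847093, plus strand): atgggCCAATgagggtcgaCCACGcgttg
Canx (chr11:50325800-50325818, minus strand): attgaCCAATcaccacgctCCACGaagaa
Pdia6 (chr12:17266491-17266509, plus strand): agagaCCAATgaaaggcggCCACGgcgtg
Dnajc3 (chr14:118937827-118937845, plus strand): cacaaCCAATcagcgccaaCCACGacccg
Creld2 (chr15:88819520-88819538, minus strand): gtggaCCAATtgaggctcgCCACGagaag
Derl3 (chr10:75893242-75893260, minus strand): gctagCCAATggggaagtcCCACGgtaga
Syvn1 (chr19:6046532-6046550, plus strand): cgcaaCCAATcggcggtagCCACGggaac

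With 1 base of CCACG left free (CCANG), Sel1l was added, for 10 of 30, against 0.366% of all promoters. ERSE-II, the variant with ATTGG and CCACG set 1 base apart, was found in 2 members and in 0.0444% of all promoters. In Herpud1 it lay 52 bases before the start, and in Dnajb11 it lay after the start. UPRE, an element bound by XBP1 and written TGACGTGG, was found in none of the 30 windows and in 0.714% of all promoters. The ERSE-II matches are printed likewise.
Herpud1 (chr8:94386377-94386387, plus strand): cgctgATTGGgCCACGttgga
Dnajb11 (chr16:22857852-22857862, plus strand): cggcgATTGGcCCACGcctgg

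ATF4 acts through another element, the CARE, searched as TGATGNAA on both strands. It was found in 4 of the 30 promoters, those of Asns, Chac1, Trib3 and Herpud1, and in 4.51% of all promoters. The first 3 of these genes are in the PERK and ATF4 branch. The 4 matches are printed with the fixed letters in capitals.
Asns (chr6:7693225-7693232, minus strand): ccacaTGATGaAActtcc
Chac1 (chr2:119351049-119351056, minus strand): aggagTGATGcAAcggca
Trib3 (chr2:152344039-152344046, plus strand): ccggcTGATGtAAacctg
Herpud1 (chr8:94386317-94386324, minus strand): cgggcTGATGcAAcccgc

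The question asked of the values was how each arm stood in null against WT cartilage. The comparison was fitted with limma on log2(abundance + 0.5) over the 12813 genes with a mean abundance of at least 1 over all 6 libraries. Of the 34 genes 33 met this minimum, and Trib3 did not. None of the 33 passed an adjusted p of 0.05 by limma with Benjamini-Hochberg adjustment over all genes tested (adjusted p = 0.810 to adjusted p = 0.988), where 4 of all genes, or 0.0312%, passed. At an unadjusted p under 0.05 there were 9 members, each with the higher mean in null libraries, and 3.25% of all genes tested were higher at that threshold and 2.33% lower. The 3 null libraries lay above the 3 WT libraries for 11 members, against 6.27% of all genes, and below them for 0 members, against 5.07% of all genes. Since this contrast led to the set, nothing is read from these shares. Over the 33 genes the median log2 fold change was 0.21, beside 0.022 over all genes tested, of which 54.1% had the higher mean in null libraries.

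Folding chaperones and folding enzymes had the higher mean in null libraries in 15 of 15 genes. Their log2 fold changes ran from 0.11 to 0.53 with a median of 0.28. Hspa5 was at 242, 251 and 235 in null libraries 1 to 3, against 152, 156 and 201 in WT libraries 1 to 3. Every null value was above every WT value, and the null libraries lay closer together than the WT libraries (243 ± 8.27 in null and 170 ± 27.5 in WT, SD, n = 3 each). The log2 fold change was 0.53 ± 0.14 (SE). Hsp90b1, the ER member of the HSP90 family, was at 198, 170 and 153 in null libraries, against 128, 145 and 170 in WT libraries. Here null 2 and null 3 fell within the WT range, and the log2 fold change was 0.24 ± 0.16.

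The calnexin cycle holds glycoproteins until they fold. Its soluble lectin Calr was the most abundant of the 34 genes on this scale, at 254, 301 and 242 in null libraries and 201, 196 and 194 in WT libraries. The WT values differed from each other by little (SD 3.52), and all lay below null 3, the lowest null value. Canx, the membrane-bound lectin of the pair, was at 102, 108 and 101 in null, against 84.9, 84.8 and 91.0 in WT libraries, again without overlap. Pdia3, the isomerase that works with both lectins, was at 162, 157 and 155 in null and 128, 121 and 146 in WT libraries. The null values of Pdia3 spanned a narrow range above all of WT (log2 fold change 0.27 ± 0.11).

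The other disulfide isomerases also had higher means in null libraries. Pdia6 was at 87.5, 86.0 and 80.0 in null, against 57.3, 63.8 and 70.2 in WT libraries (log2 fold change 0.41 ± 0.12). P4hb, which is at once an isomerase and the beta subunit of collagen prolyl 4-hydroxylase, was at 127, 143 and 160 in null, against 116, 112 and 122 in WT libraries (0.29 ± 0.12). Both were without overlap, but the order of the null libraries differed: null 1 was highest for Pdia6 and null 3 for P4hb. Pdia4 was at 35.6, 33.8 and 29.3 in null and 22.6, 25 and 31.1 in WT libraries, so that WT 3 lay above null 3.

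Co-chaperones and nucleotide exchange factors of Hspa5 were uneven. Sdf2l1, which forms a complex with Dnajb11 to keep proteins soluble, was at 36.1, 46.3 and 38.1 in null, against 25.4, 27.1 and 31.5 in WT libraries (log2 fold change 0.51 ± 0.14). Hyou1, an exchange factor for Hspa5, was at 19.5, 21.3 and 19.4 in null, against 13.5, 14.4 and 16.4 in WT libraries (0.43 ± 0.12). Both separated the genotypes. Dnajb11 itself was at 54.4, 54.2 and 49.8 in null, against 48.4, 46.2 and 52.5 in WT libraries, and it had the smallest log2 fold change of the arm (0.11 ± 0.11). The J proteins Dnajc3 (0.14 ± 0.10) and Dnajb9 (0.28 ± 0.18) also overlapped between the genotypes. So did the secreted ER stress proteins Manf, at 170, 164 and 150 in null and 136, 133 and 165 in WT libraries, and Creld2 (0.27 ± 0.18).

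Across the arm, WT 3 stood nearest to the null libraries. Taken as the mean log2 difference from each gene's WT mean, the 15 genes gave 0.35, 0.32 and 0.26 in null libraries 1 to 3 and −0.06, −0.07 and 0.13 in WT libraries 1 to 3. The null libraries thus differed less among themselves (SD 0.049) than the WT libraries did (SD 0.111). None of the 15 genes had its highest value in a WT library, and none had its lowest in a null library. When any 1 library was left out, all 15 kept the higher mean in null, with the arm's median between 0.24 and 0.35. The set was chosen on this contrast in these same libraries, so nothing is read from that. The arm made up 0.169%, 0.162% and 0.149% of total abundance in null and 0.102%, 0.125% and 0.126% in WT libraries.

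**Figure D1:**
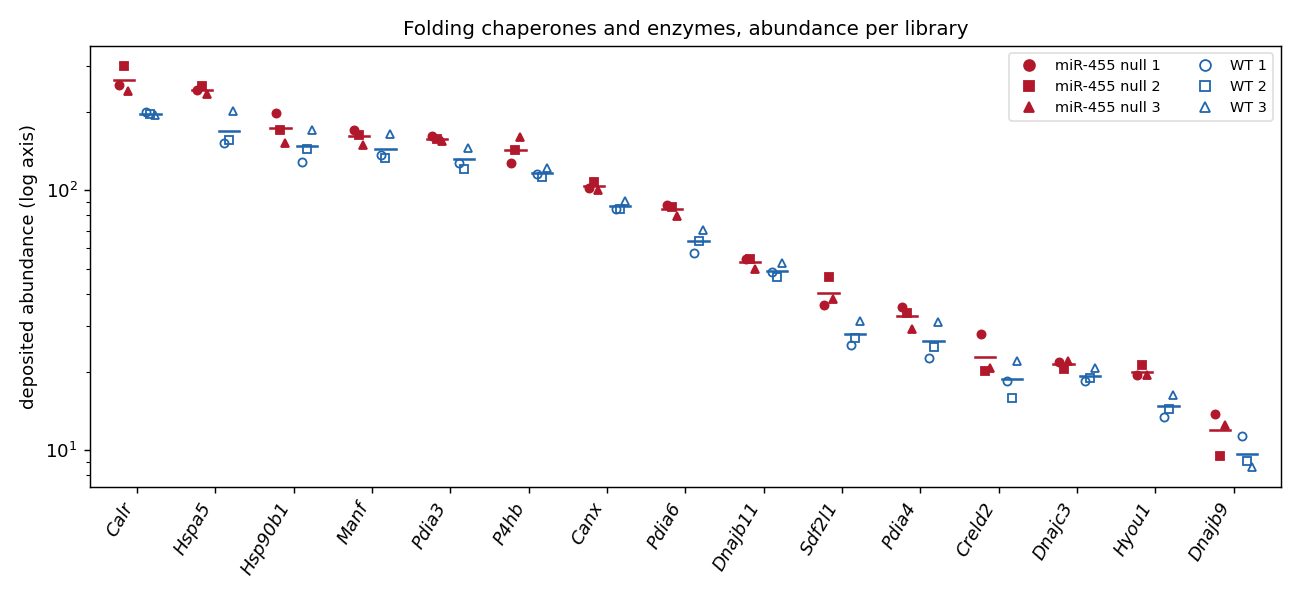
Abundance of the 15 folding chaperones and enzymes in each library on a log axis, ordered by mean abundance, with miR-455 null libraries (filled red) left of WT libraries (open blue) and a line at each group mean. Calr and Hspa5 separate completely between the genotypes, while for Hsp90b1, Manf and Dnajb11 the WT 3 value reaches into the null range.

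The genes of ER-associated degradation were mixed. Of the 9, 7 had the higher mean in null libraries and 2 the lower, and the median log2 fold change was 0.15. That median was −0.0089 without null 1 and 0.083 without null 3, so the arm's central value rests on those libraries. Edem1, a lectin that sends misfolded glycoproteins to degradation, had the largest value of the arm. It was at 40.3, 45.3 and 54.5 in null, against 29.2, 29.7 and 34.3 in WT libraries, with a log2 fold change of 0.57 ± 0.14 and no overlap. Its relative Edem2 was at 17.3, 18.4 and 22.3 in null, against 16.6, 17.04 and 17.98 in WT libraries, and the groups overlapped.

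The ubiquitin ligase complex of this pathway showed its parts in different directions. Sel1l, the adaptor, was at 12.5, 13.9 and 16.1 in null, against 12.2, 11.9 and 11.6 in WT libraries. The WT values were tight and all null values lay above them, null 1 by a small margin (log2 fold change 0.24 ± 0.13). Syvn1, the ligase (also called HRD1) that Sel1l stabilises, was at 20.0, 14.2 and 12.6 in null, against 16.2, 18.5 and 21.9 in WT libraries (−0.28 ± 0.20). Null 1 lay among the WT values and the other two below all of them. The substrate lectin Os9 was at 44.5, 53.9 and 56.7 in null and 49.95, 43.3 and 43.8 in WT libraries (0.17 ± 0.13). Herpud1, a scaffold of the complex that carries both an ERSE-II and a CARE match, was at 47.6, 38.3 and 40.6 in null, against 38.5, 40.6 and 44.5 in WT libraries, and its log2 fold change was 0.03 ± 0.13.

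The derlins are membrane proteins that help pull substrates out of the ER. Derl1 was at 36.7, 34.5 and 37.7 in null, against 37.0, 37.0 and 35.4 in WT libraries, a log2 fold change of −0.0067 ± 0.099. Derl2 was at 24.8, 18.9 and 21.8 in null and 19.5, 17.7 and 24.7 in WT libraries. Derl3, which is strong in secretory cells such as plasma cells, was the least abundant of the arm. It was at 3.48, 1.93 and 0.540 in null, against 1.77, 1.14 and 1.24 in WT libraries, so that null libraries held both its highest and its lowest value. The 12 plasma cell markers summed to 2797, 2364 and 1702 in null and 3762, 2342 and 3115 in WT libraries, and null 3 was lowest there too (two-sided exact permutation p = 0.3 between the genotypes). Their part in the Derl3 values was not tested.

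The sensor genes differed little on average, and Xbp1 more. Xbp1 was at 67.6, 63.1 and 74.8 in null, against 54.1, 60.5 and 50.2 in WT libraries, with no overlap and a log2 fold change of 0.32 ± 0.12. The table counts all Xbp1 transcripts of the gene together, so spliced and unspliced forms cannot be told apart. Atf6 was at 7.28, 7.99 and 8.20 in null, against 6.69, 7.77 and 8.02 in WT libraries (0.06 ± 0.13). Ern1 was at 4.70, 6.48 and 8.39 in null, against 6.32, 6.15 and 5.45 in WT libraries (0.09 ± 0.21). Eif2ak3 was at 8.13, 10.3 and 12.8 in null, against 8.76, 8.31 and 9.35 in WT libraries (0.21 ± 0.17). Both had their lowest value of all libraries in null 1 and their highest in null 3.

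All 4 genes of this arm were highest in null 3. Their mean log2 difference from WT was −0.04, 0.16 and 0.39 in null libraries 1 to 3 and −0.02, 0.04 and −0.02 in WT libraries 1 to 3. Neutrophil markers were likewise highest in null 3 (summed abundance 77143, 123241 and 202137 in null and 117854, 80988 and 96751 in WT libraries), and erythroid markers were lowest there (198758, 195349 and 113226 in null and 307405, 254837 and 281558 in WT libraries). Between the genotypes these sums gave two-sided exact permutation p = 0.5 for neutrophil and p = 0.1, the smallest that 3 against 3 can give, for erythroid markers. Their part in the sensor values was not tested. The median log2 fold change of the arm was 0.15. It was 0.041 without null 3 and 0.31 without null 1, and 0.26 when libraries were scaled to the same total.

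The PERK and ATF4 branch did not share one direction. Of its 5 genes above the minimum, 2 had the higher mean in null libraries and 3 the lower, with a median log2 fold change of −0.10. The median was 0.078 without null 3, 0.013 when libraries were scaled to the same total, and 0.044 when the minimum was dropped so that Trib3 entered. Atf4, the transcription factor that PERK signalling favours, was at 158, 126 and 100 in null, against 147, 130 and 144 in WT libraries (−0.16 ± 0.18). Ddit3, which encodes the factor CHOP and has a second identifier listed at 0 in all libraries, was at 33.4, 30.6 and 21.7 in null, against 30.3, 31.4 and 29.2 in WT libraries (−0.10 ± 0.17). In both genes null 1 was the highest and null 3 the lowest of the 6 libraries.

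Ppp1r15a, which encodes the phosphatase subunit GADD34 that ends the translation block, varied most of the abundant members. It was at 282, 122 and 82.0 in null, against 195, 165 and 262 in WT libraries. The null libraries held both extremes (162 ± 106 in null and 207 ± 49.6 in WT, SD, n = 3 each), and the log2 fold change of −0.52 ± 0.43 was −0.13 without null 3 and −1.02 without null 1. Asns, asparagine synthetase and a classical ATF4 target, was at 32.8, 31.4 and 24.9 in null, against 28.3, 30.0 and 20.0 in WT libraries (0.19 ± 0.19).

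The remaining targets, Chac1 and Trib3, had their lowest null value in null 1, and only Chac1 rose through to null 3. Chac1, which degrades glutathione, was at 1.32, 2.24 and 3.24 in null, against 1.43, 1.11 and 1.31 in WT libraries. Its log2 fold change of 0.58 ± 0.29 was close to that of Edem1 (0.57 ± 0.14), but null 1 lay within the WT range, and the value was 0.33 without null 3 and 0.85 without null 1. Trib3, a pseudokinase induced by CHOP, was at 0.603, 1.28 and 1.06 in null, against 0.504, 0.793 and 0.718 in WT libraries. Both genes were near the floor of the table and their read support is unknown. Asns, Chac1 and Trib3, the CARE-bearing genes of the branch, thus did not follow the same order of libraries.

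**Figure D2:**
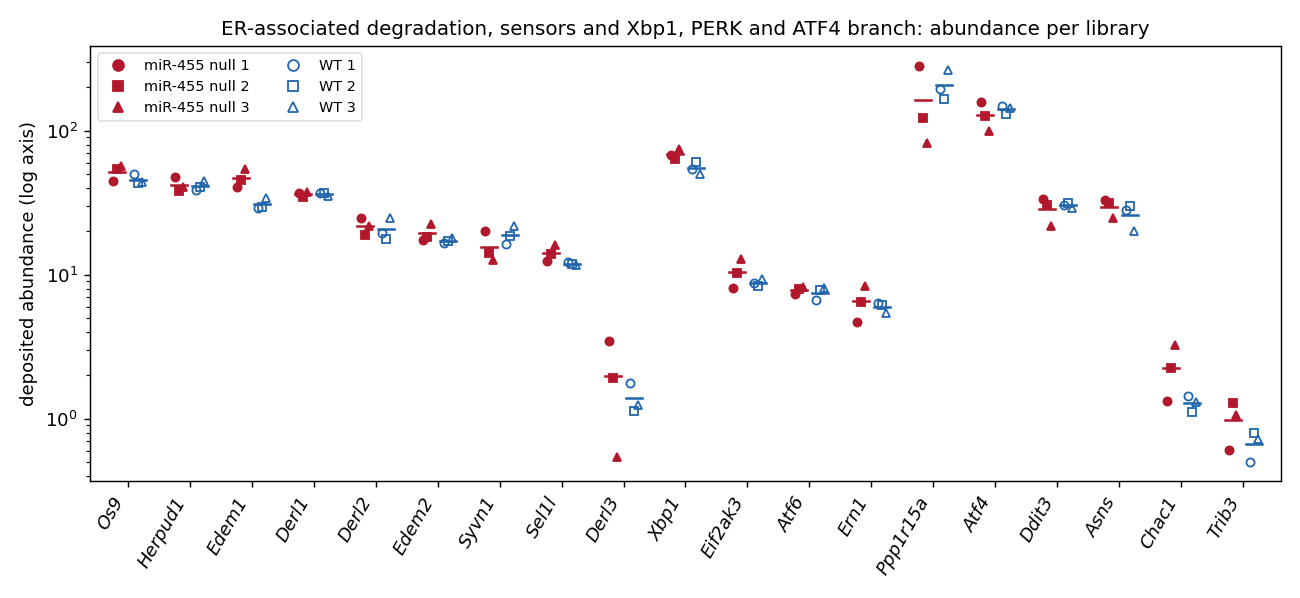
Abundance of the 19 genes of the other arms in each library on a log axis, with miR-455 null libraries (filled red) left of WT libraries (open blue) and a line at each group mean. Edem1, Sel1l and Xbp1 lie higher in all null libraries, whereas Ppp1r15a has both its highest (282) and its lowest (82.0) value among them.

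Set beside each other, the arms differed in how the null libraries were ordered. The mean log2 difference from WT of the PERK and ATF4 branch was 0.23, 0.0063 and −0.25 in null libraries 1 to 3, while that of the sensors with Xbp1 went in the opposite order. The degradation arm gave 0.23, 0.09 and 0.07. The spread among null libraries was 0.240 (SD) for the PERK and ATF4 branch and 0.214 for the sensors, against 0.055 and 0.035 among WT libraries. For the folding arm the null spread was the smaller one. Fibroblast markers were highest in null 1 (830, 441 and 372 in null and 438, 524 and 412 in WT libraries). So were osteoblast and osteocyte markers (1852, 1275 and 1295 in null and 1299, 1740 and 1527 in WT libraries). Skeletal muscle markers were also highest there (208, 76.2 and 89.6 in null and 46.3, 64.8 and 63.4 in WT libraries). Two-sided exact permutation tests gave p = 0.8 for fibroblast, p = 0.8 for osteoblast and p = 0.1 for skeletal muscle markers. The part of these markers in the order of the arms was not tested. Macrophage markers, of which all 8 were above the minimum, summed to between 434 and 502 in null and between 378 and 389 in WT libraries, and like the folding arm they separated the genotypes (two-sided exact permutation p = 0.1). Skeletal muscle markers, higher in null libraries, and erythroid markers, lower in them, also separated the genotypes. So did the 9 B cell markers as sums, between 154 and 340 in null and between 341 and 544 in WT libraries (two-sided exact permutation p = 0.1). As shares of total abundance the B cell markers overlapped between the genotypes (two-sided exact permutation p = 0.3). Their shares were 0.0156% to 0.0348% in null and 0.0301% to 0.0510% in WT libraries. Chondrocyte markers (two-sided exact permutation p = 0.3) and megakaryocyte markers (two-sided exact permutation p = 0.2) overlapped as sums. The part of these cell types in the folding values was not tested.

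**Figure D3:**
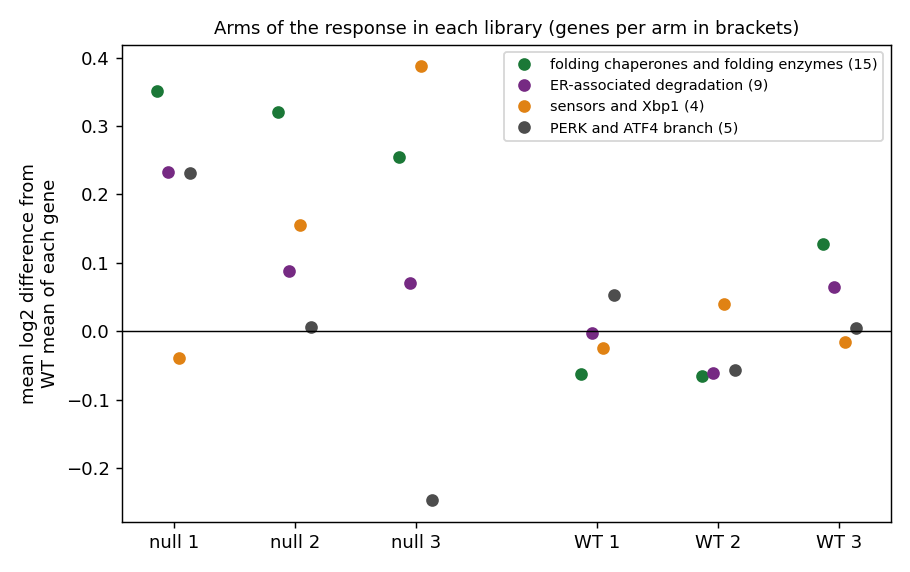
Mean log2 difference of each arm from the WT mean of its genes, in null libraries 1 to 3 (left) and WT libraries 1 to 3 (right), with the number of genes per arm in brackets. The folding arm is above 0.25 in all null libraries, while the sensors and the PERK and ATF4 branch spread from −0.25 to 0.39 in opposite orders.

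Members with and without the promoter element had similar fold changes. The 11 genes with an ERSE or ERSE-II had a median log2 fold change of 0.24, from −0.28 for Syvn1 to 0.53 for Hspa5, and 10 of them had the higher mean in null libraries. The 18 other genes above the minimum with a promoter in the table had a median of 0.22, and 15 of them had the higher mean. The members were chosen on this contrast and both groups mix arms, so nothing about the element is read from these medians. Edem1 and Sdf2l1, both among the 4 largest values, held no exact ERSE or ERSE-II in their windows, which says only that these letters are not there.

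**Figure D4:**
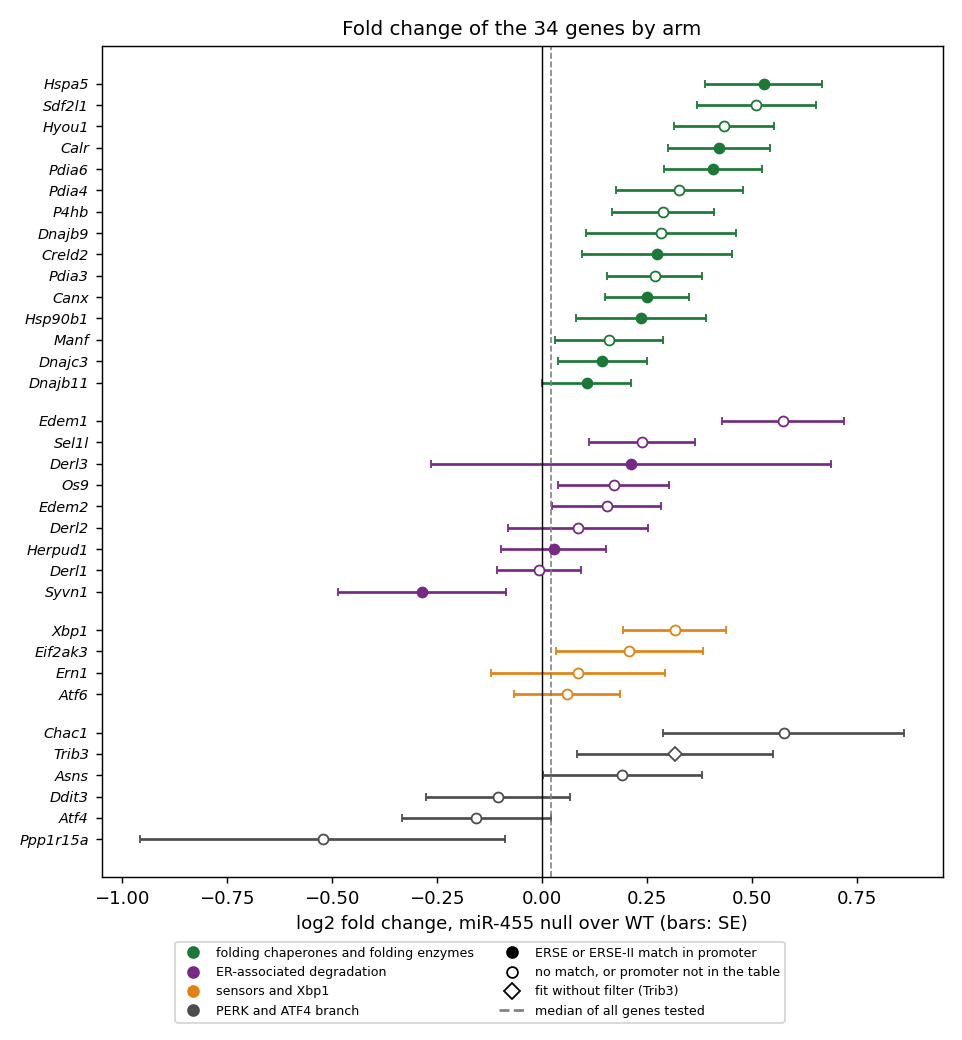
Log2 fold change (miR-455 null over WT, bars show the SE) of the 34 genes by arm, with filled symbols for genes with an ERSE or ERSE-II match and a dashed line at the median of all genes tested (0.022). All 15 folding genes lie right of 0, whereas Syvn1, Ddit3, Atf4, Ppp1r15a and, close to 0, Derl1 (−0.0067) lie left of it.

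Genes related to the members were grouped into lists by known function. The lists were chosen with earlier results of these data known, so their counts are a description and nothing is read from them. Collagen-folding genes lay furthest from 0, with 16 of 17 higher in null libraries, a median log2 fold change of 0.38 and 5 at an unadjusted p under 0.05, all higher, beside 3.25% of all genes tested that were higher at that threshold and 54.1% with the higher mean. Serpinh1, the collagen chaperone HSP47, was at 105, 65.1 and 53.9 in null, against 40.6, 52.1 and 44.9 in WT libraries (0.65 ± 0.25). Its highest value was in null 1, where fibroblast markers were highest too, and the part of these in the value was not tested. P4ha1, which forms prolyl 4-hydroxylase together with P4hb, was at 11.7, 9.84 and 8.58 in null, against 6.05, 6.60 and 8.06 in WT libraries (0.51 ± 0.16). P3h2 was the one gene of the list with a lower mean in null libraries.

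The remaining ER lists had medians nearer to that of all genes tested, which was 0.022. Other disulfide and folding enzymes were higher in 18 of 23 (median 0.12), among them Pdia5 at 4.79, 4.92 and 4.75 in null, against 3.89, 3.72 and 3.09 in WT libraries. The abundant Erp29 was at 155, 128 and 146 in null, against 150, 137 and 174 in WT libraries, and Tmx1 had the lowest value of the list (log2 fold change −0.16 ± 0.12), so the list was not uniform. Sumf2 had the highest (0.60 ± 0.21). Glycan-dependent quality control and export lectins were higher in 11 of 13 (median 0.11), with Lman1, a cargo receptor for ER exit, at 16.5, 19.7 and 17.3 in null, against 13.4, 14.7 and 13.1 in WT libraries. In this list Man1a2, a mannosidase, had the highest log2 fold change (0.45 ± 0.17) and Erlec1, an ER lectin, the lowest (−0.25 ± 0.13). Translocation genes were higher in 16 of 24 (median 0.05), and here 2 components of one channel stood on opposite sides. Sec61a1, its pore, was at 45.9, 48.0 and 51.6 in null, against 39.0, 41.5 and 37.7 in WT libraries. Sec61g, a small subunit, was at 38.0, 38.7 and 37.5 in null, against 56.7, 46.4 and 48.2 in WT libraries. Ubiquitin ligases and extraction factors that act with the degradation arm were higher in 8 of 17 with a median of −0.0038, and Vcp, the ATPase that extracts substrates, was at 98.5 ± 3.78 in null and 98.8 ± 2.19 in WT libraries (SD, n = 3 each). Aup1 was at 114, 78.0 and 74.5 in null, against 113, 103 and 106 in WT libraries, and like Syvn1 it was low in null 2 and null 3 only.

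Outside the classical arms, other regulators were higher in 12 of 17 (median 0.06). Creb3l1, a relative of ATF6 that drives collagen secretion in bone, was at 5.498, 4.73 and 4.27 in null, against 3.15, 3.22 and 2.44 in WT libraries (log2 fold change 0.64 ± 0.17). Creb3l2, which serves cartilage in the same way, was at 2.95, 3.35 and 3.52 in null, against 2.22, 2.51 and 2.47 in WT libraries (0.38 ± 0.15). Neither overlapped between the genotypes. Creb3 went the other way, at 10.92, 14.33 and 15.89 in null, against 16.07, 16.05 and 14.84 in WT libraries (−0.1999 ± 0.156). It had the lowest log2 fold change of this list, and its values overlapped between the genotypes. Other ATF4 targets were higher in 17 of 24 (median 0.16), and their direction varied. Slc3a2, an amino acid transporter subunit and the most abundant of them, was at 77.8, 72.6 and 50.8 in null, against 75.1, 74.3 and 61.6 in WT libraries (−0.085 ± 0.18). Nars, an aminoacyl-tRNA synthetase and the next in abundance, was at 59.5, 63.5 and 61.4 in null, against 44.9, 51.8 and 50.6 in WT libraries (0.32 ± 0.11). Ddit4 had the highest log2 fold change of the list (0.47 ± 0.24) and Gdf15 the lowest (−0.31 ± 0.39), and both overlapped between the genotypes. Atf5 was at 23.1, 20.4 and 15.9 in null, against 13.5, 14.9 and 13.96 in WT libraries (0.46 ± 0.15). Cytosolic and mitochondrial chaperones, which act outside the ER, were higher in 20 of 26 with a median of 0.08. Hspa8, the cytosolic relative of Hspa5, was at 647, 448 and 602 in null, against 423, 448 and 559 in WT libraries, and the groups overlapped. The heat shock protein Hspb1 had the highest log2 fold change of that list (1.02 ± 0.48), with 14.3, 3.63 and 3.96 in null, against 2.70, 3.30 and 2.19 in WT libraries, so that null 1 stood far above the rest. None of the genes on these lists passed an adjusted p of 0.05 by limma over all genes tested (smallest adjusted p = 0.810).

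**Figure D5:**
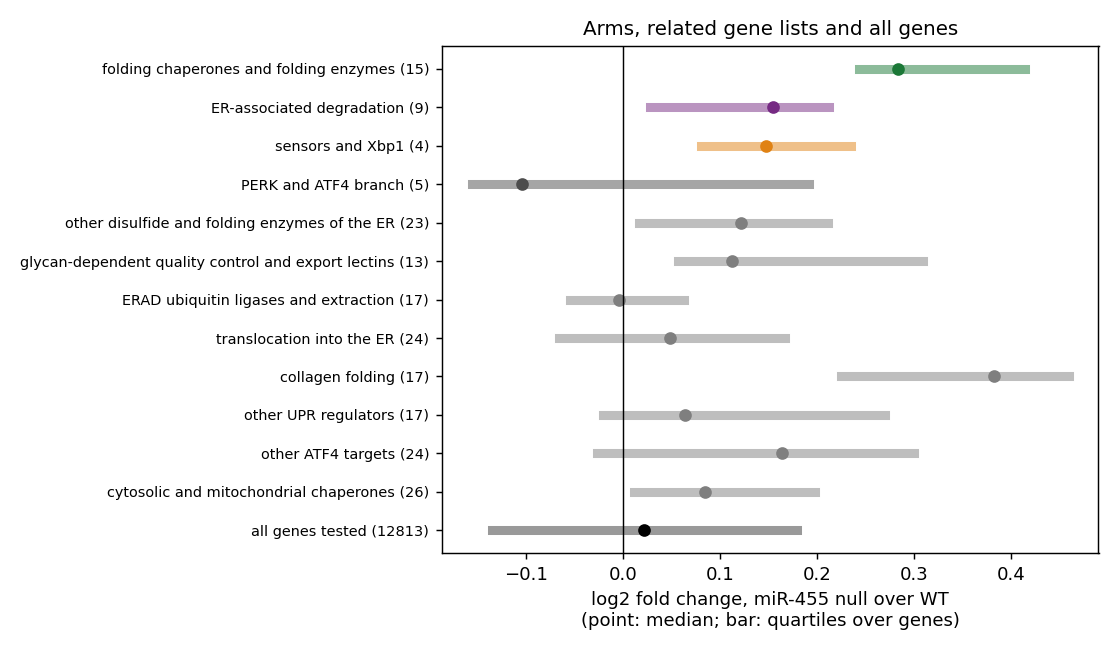
Median (point) and quartiles (bar) of the log2 fold change, miR-455 null over WT, for the 4 arms, 8 lists of related genes and all 12813 genes tested, with the number of genes above the abundance minimum in brackets. Collagen folding (0.38) and the folding arm (0.28) lie furthest right, and the PERK and ATF4 branch (−0.10) furthest left.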

How the data were processed

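RNA sequencing of total RNA gave 6 libraries from knee cartilage, 3 miR-455 null and 3 WT. Per the labels, the authors used FastQC, Trim Galore, kallisto and sleuth with the mouse build mm10 and gave no versions here. Each deposited table holds a signal per gene that the authors called normalised counts, and that was not in whole numbers, so no count model was fitted. Tables of alignment rates were not used here.

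Symbols came from a GENCODE M21 table, which matched 35866 of 36711 identifiers. Genes with a mean of at least 1 over all libraries were fitted with limma 3.58.1 (R 4.3.3) on log2(abundance + 0.5), with a trended prior, genotype as the single term and Benjamini-Hochberg adjustment over 12813 genes. Fold changes on this scale understate those of low genes. Sums over marker genes were compared by two-sided exact permutation tests, which cannot go below 0.1. Fits were tested on simulated data. No 2 libraries were identical.

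The genes, arms and lists were chosen with earlier results of these data known. All 34 genes are accounted for. By rule, values in each library were given for the most abundant members of an arm, those with the largest and smallest fold changes and those without overlap. For each related list the rule named the 2 most abundant genes and the highest and lowest fold change, but it was followed only in part. Some of these genes are left out or lack values in each library. Ssr1 (highest in translocation, log2 fold change 0.38 ± 0.16), Ube2j1 (highest in ubiquitin ligases and extraction, 0.28 ± 0.14) and Dnajb4 (lowest in cytosolic and mitochondrial chaperones, −0.26 ± 0.17) are named only here. P4ha1, Pdia5, Lman1, Sec61a1, Creb3l2 and Atf5 fall outside the rule and were chosen after their values were seen. Promoters are RefSeq sequences of GRCm38.p6. Protein sequences were not analysed here. Alternatives were other pseudocounts, minimums, scalings and variance models, a fit blocked on the replicate number, and fits without each library in turn.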

Additional observations from a re-analysis of the deposited data

How the results depend on the processing

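No member passed an adjusted p of 0.05 by limma under any of the 16 alternatives, and the 15 folding genes kept the higher mean in null libraries under each. The set was chosen on this contrast in these same libraries, so the shared direction is a description only. In the main fit 54.1% of all genes tested had the higher mean in null libraries. Members at an unadjusted p under 0.05 numbered 9, and between 6 and 13 under the alternatives. In the main fit 3.25% of all genes tested were higher at that threshold and 2.33% lower. These shares were not taken under the alternatives, the blocked fit among them, so nothing is read from the change in number. Genes past adjustment numbered 4, but 2 with a pseudocount of 0.1, 2 with no minimum, 1 with a mean of at least 5, 1 with at least 5 in at least 3 libraries, 1 with the replicate block and 1 to 14 when a library was left out. Null and WT libraries with the same number had correlations of −0.13, 0.053 and −0.029 between their deviations from the group means. They share only a number. With the block, as without it, no member passed adjustment. Members at an unadjusted p under 0.05 by limma numbered 6 with the block and 9 without it. Scaling to the same total moved the median of all genes to 0.13 and the arm medians to 0.40 (folding), 0.27 (degradation) and 0.013 (PERK and ATF4). The last was 0.044 with no minimum. Without a library, medians ran from −0.0089 to 0.16 for degradation and from −0.23 to 0.078 for PERK and ATF4. Of 524 values of single genes, 15 changed sign, none of them past adjustment. On scaling to the same total these were Derl1 (0.11) and Ddit3 (0.013), and on scaling without marker genes Derl1 (0.0073). When a library was left out, Herpud1 ran from −0.062 to 0.094, Derl1 from −0.034 to 0.029, Derl2 from −0.015 to 0.22, Derl3 from −0.23 to 0.74, Atf6 from −0.014 to 0.11, Ern1 from −0.10 to 0.29, Atf4 from −0.32 to 0.0083 and Ddit3 from −0.23 to 0.078. Osteoblast markers had a null to WT ratio of 0.968 as sums and 1.05 as shares of the total. The cause of these changes was not tested. Depth is unknown, so the precision of low genes such as Trib3, Chac1 and Derl3 cannot be stated.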
